A study of Oryza sativa with 24 samples.

Results

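The embryo and the endosperm of the rice grain were set against each other, gene by gene, by the mean expression level of the embryo minus that of the endosperm. A gene entered where the tables of both tissues listed it, which held for 13166 of the 17780 genes in any table, and a further 3731 genes were listed for the embryo only and 883 for the endosperm only. The libraries came from 2 wild-type japonica accessions, Gopum, which is susceptible to pre-harvest sprouting (PHS), and Jowoon, which is resistant. Seeds of field-grown plants were divided into the 2 tissues on day 30, 45 or 60 after heading (DAH), giving 12 groups of 2 libraries each, 12 libraries per tissue and 24 in all. RNA of each sample was pooled over many seeds of several plants.

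A level here, called mean log2 CPM below, is the authors' log2 of an average CPM over the libraries of a tissue. CPM is a gene's read count scaled to the total of its library. The 3 tables of a tissue carried the same level for every gene, so a gene has 1 level per tissue and none per library, accession or stage. The spread between replicates is therefore unknown, no difference below was tested, and the values describe these pools of libraries. The depth of each library is likewise unknown. The tissues were normalized separately, and levels are not corrected for transcript length, so abundant below means rich in reads. In whole tissue, fewer cells of a type and less RNA per cell cannot be told apart.

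The embryo of a cereal grain is the living plantlet, with its shoot meristem, root and scutellum, and it stores oil and protective proteins before it dries. The starchy endosperm fills with starch and storage proteins and dies as the grain matures, while its outer aleurone layer stays alive. PHS is germination on the mother plant, and abscisic acid (ABA), gibberellin and ethylene are the hormones best known for setting seed dormancy against germination.

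The reads of the endosperm were far more concentrated than those of the embryo. The 10 most abundant genes held 43.5% of the summed CPM in the endosperm and 11.1% in the embryo, and the 50 most abundant held 63.3% and 23.3%. In the endosperm 16 genes made up 50% of the summed CPM, where the embryo needed 481. The most abundant endosperm gene, OS01G0762500, held 11.4% of the endosperm total with a level of 16.84, against 9.28 in the embryo. OS10G0400200 followed at 15.99 in the endosperm and 8.39 in the embryo. In the embryo the leading genes were OS08G0104400, at 14.44 against 12.05 in the endosperm, and OS02G0161900, at 13.86 against 12.31. The files pair none of these IDs with a gene name. Of the 50 leading genes of each tissue 12 were the same, and all 100 places were filled by genes listed in both tissues.

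**Figure D1:**
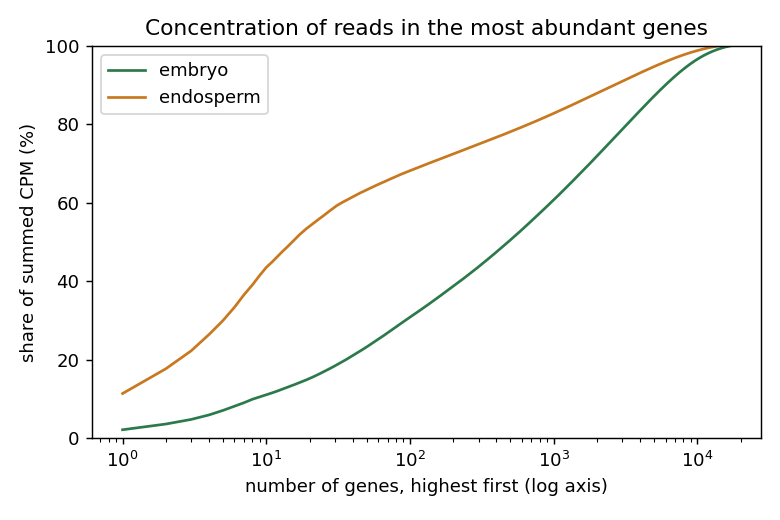
Share of the summed CPM (%, vertical axis) held by the most abundant genes, counted from the highest (log axis), in embryo and endosperm. The endosperm curve reaches 43.5% at 10 genes, where the embryo curve stands at 11.1%.

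Beside that concentration stood a shift of nearly every other gene, and values scaled to 1 total per tissue cannot show how much of either is absolute. The median difference was 1.32 in favour of the embryo, a 2.50-fold gap, with quartiles of 0.75 and 1.79, and 89.1% of genes had a positive difference as deposited. Differences are therefore given as deposited and, where so marked, centred, which means after the median of 1.32 was taken off. As deposited, 2081 genes were at least 4-fold higher in the embryo, 15.8% of the genes compared, and 259 were at least 4-fold higher in the endosperm, 1.97%. Centred, the balance turned over, with 96 genes (0.729%) past 4-fold in the embryo and 749 (5.69%) in the endosperm.

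**Figure D2:**
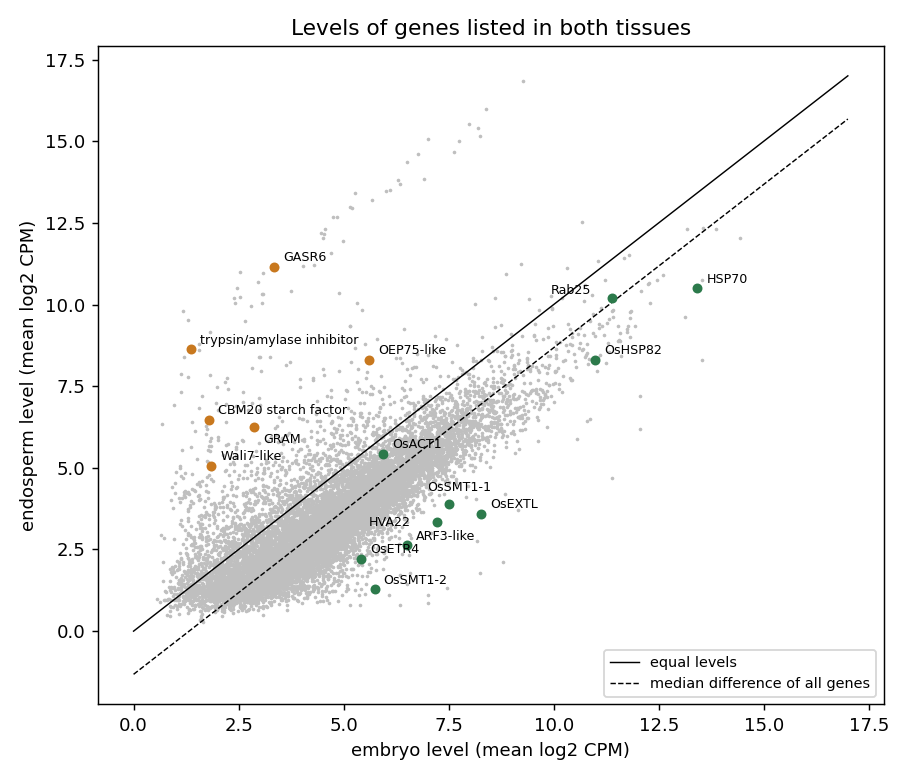
Level in the embryo (horizontal) and endosperm (vertical), both as mean log2 CPM, for each of the 13166 genes listed in both tissues, with annotated genes labelled. The bulk of genes lies along the dashed line of the median difference, 1.32 below equality, and a separate string of genes runs parallel to it at the upper left.

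Names and functions could be given only to genes that the study annotated, since no ID in the tables was found in the RefSeq gene table. Of the 17780 genes 771 had an entry there, and for 602 of these the entry gave more than an uncharacterised product. The study chose those genes on these same samples, as stress and hormone genes that differed between the accessions or as predicted targets of miRNAs, so they are no sample of all genes. Over the 574 such genes of the supplementary tables listed in both tissues the median difference was 1.25, with 92 past 4-fold in the embryo and 8 in the endosperm as deposited, and 7 and 34 centred. Glutelins, prolamins, starch enzymes and oleosins, the usual markers of these tissues, had no annotated member. The 1 annotated storage protein, a Globulin 1 fragment (OS03G0663800), was low in both tissues, at 2.59 in the embryo and 2.82 in the endosperm. The tissue labels were checked only on single genes. The planned pattern for late embryogenesis abundant (LEA) proteins and dehydrins matched 17 annotated genes, but it also takes the letters LEA inside other words. The pattern for embryo maturation regulators matched 3. Neither set was read as a list. A bZIP activator annotated for grain filling, OS07G0182000, was listed only for the endosperm, at 5.66. A knotted1-like homeobox gene annotated for shoot meristem maintenance and embryogenesis, OS03G0727000, was listed only for the embryo, at 4.46. Other such genes did not separate the tissues. Of 3 GRAS genes annotated for shoot meristem maintenance, 1 was listed for the embryo alone. The other 2 were listed for both tissues, with differences of -0.78 and -0.13 centred, and the dehydrin Rab25 had one of -0.14 centred.

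Many of the abundant genes that were higher in the endosperm than in the embryo had differences between -8 and -7. Of the 73 genes listed in both tissues with an endosperm level of at least 10, 46 were at least 4-fold higher in the endosperm. Over all genes in both tissues the share was 1.97% as deposited, but picking genes by a high endosperm level itself favours such differences. Of the 73 genes, 31 had a difference between -8 and -7. Over those 46 genes the median difference was -7.54, with an SD over genes of 1.28. The band from -8 to -7 held 37 genes in all, whose endosperm levels ran from 8.40 to 16.84 and whose embryo levels ran from 1.20 to 9.28. Their median difference was -7.55, so their embryo CPM was about 0.534% of their endosperm CPM. Their SD over genes was 0.27. The band was set on these same differences, and its limits confine that median and hold down that SD. Whether the embryo reads of these genes came from endosperm RNA in the embryo samples was not tested. Of the 50 leading endosperm genes, also picked by their endosperm level, 36 were at least 4-fold higher in the endosperm. These 36 held 59.0% of the endosperm total and 0.435% of the embryo total.

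**Figure D3:**
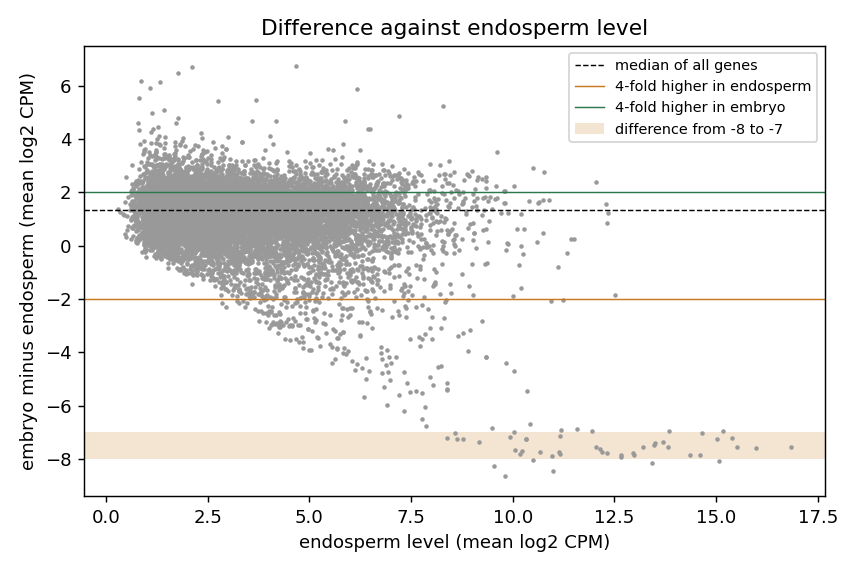
Embryo minus endosperm difference (mean log2 CPM) against the endosperm level for genes listed in both tissues. Above an endosperm level of about 10, genes past the 4-fold line gather in the shaded band from -8 to -7, which holds 37 genes with a median of -7.55.

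Among annotated genes, the endosperm side was led by small secreted proteins and by a starch factor. OS05G0432200, similar to gibberellin-regulated protein 2 and given the product name GASR6 of the GASA family, had a level of 11.16 in the endosperm and 3.34 in the embryo, a difference of -7.81 as deposited and -9.13 centred. OS07G0216600, a bifunctional trypsin and alpha-amylase inhibitor of the kind that guards grain reserves, stood at 8.64 against 1.37, a difference of -7.27. Both lay inside the band of ratios given above. OS01G0856900, a protein with a carbohydrate-binding module annotated for starch biosynthesis, stood at 6.47 against 1.79, a difference of -4.68 and outside that band.

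Stress and membrane genes followed. A GRAM domain gene that the study took up as a candidate, OS03G0736700, stood at 6.25 in the endosperm and 2.87 in the embryo, a difference of -3.38. OsDi19-5 (OS01G0971100), a drought-induced zinc finger protein, stood at 6.24 against 2.87, a difference of -3.37, and a Wali7-like gene, OS12G0145100, at 5.06 against 1.85. OS03G0271200, similar to OEP75 of the plastid outer envelope, a channel for protein import, stood at 8.31 against 5.60. These were 4 of the 8 annotated genes past 4-fold as deposited. Family members did not share the side: OsDi19-1 (OS05G0562200) stood at 10.60 in the embryo and 8.67 in the endosperm, a difference of 1.93 as deposited and 0.61 centred. The GRAM domain gene OsGDP (OS12G0478200) stood at 8.75 in the embryo and 7.75 in the endosperm, a positive difference as deposited that became -0.32 centred.

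On the embryo side a wall protein and a sterol gene had the largest differences of any annotated genes. OsEXTL (OS10G0371000), an extensin-like wall protein, stood at 8.28 in the embryo and 3.59 in the endosperm, a difference of 4.68 as deposited and 3.36 centred. OsSMT1-2 (OS03G0807600) stood at 5.74 against 1.29, a difference of 4.45 and 3.13 centred. OsSMT1-1 (OS07G0206700), a cycloartenol C-24-methyltransferase and so an early step towards plant sterols, stood at 7.50 against 3.91, a difference of 3.60 and 2.28 centred, behind the HVA22 and ARF3-like genes given below. Both SMT1 genes thus stayed past 4-fold after centring.

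All 7 annotated sterol and brassinosteroid genes were listed in both tissues, with a median of 2.23 as deposited and 0.91 centred. As deposited 4 of the 7 were past 4-fold in the embryo, where 15.8% of all genes were, and centred 2 of the 7 against 0.729%. Of the 7, 6 stood above the median of all genes. BRD2 (OS10G0397400), a reductase of brassinosteroid synthesis, stood at 7.04 in the embryo and 4.67 in the endosperm, a difference of 2.37. The exception was a steroid 4-dehydrogenase domain gene, OS04G0576800, at 4.31 against 4.72, a difference of -0.42.

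Other embryo-rich genes had roles in translation, chromatin and defence. OS12G0406200, similar to ribosomal protein S3a, stood at 8.44 in the embryo and 5.79 in the endosperm, a difference of 2.64, and OS08G0505300, similar to ribosomal protein L31, had a difference of 3.03. OS04G0564600, similar to the chromatin protein HMG1, had a difference of 2.32, and the cold shock protein OsCSP2 (OS08G0129200), an RNA-binding protein, one of 2.85. A polygalacturonase-inhibiting protein, OS07G0568700, which blocks wall-degrading enzymes of fungi, stood at 8.24 against 5.23. Centred, these 5 genes stayed higher in the embryo but none reached 4-fold.

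Among the transcription factors of meristem and organ development, 3 families with predicted miRNA target sites were embryo-rich or listed mainly for the embryo. Auxin response factors (ARFs) bind auxin-responsive promoters, HD-ZIP III factors set organ polarity and meristem fate, and SPL factors time developmental phases. The miRNAs that guide cleavage of these messages are miR167, miR166 and miR156. The sites are predictions, shown to match each gene with the miRNA predicted to target it. The miRNA seed (bases 2 to 8) and the bases of the site that face it are in capitals. All are written 5′ to 3′ as the study's target tables give them. miRNA levels were not analysed here.

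osa-miR167a-5p/b/c-5p: uGAAGCUGccagcaugaucua
OS02G0164900 site: gagaucaggcuggCAGCUUGu
OS04G0671900 site: uagaucaggcuggCAGCUUGu
OS06G0677800 site: gagaucaggcuggCAGCUUGu
Osa-miR166m: uCGGACCAggcuucauuccc
OS03G0109400, OS03G0640800 and OS12G0612700 site: ugggaugaagccUGGUCCGg
Osa-miR156d/f/j/m: uUGACAGAagagagugagcac
OS08G0509600 and OS09G0491532 site: gugcucucucucuUCUGUCAa
OS02G0174100 and OS04G0551500 site: gugcucucucucuUCUGUCAu
OS02G0139400 site: augcucucucucuUCUGUCAa
OS01G0922600 site: gugcucucucucuUCUGUCAg

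The 3 ARF genes with a miR167 site were past 4-fold in the embryo as deposited, where 15.8% of all genes were. Centred, 1 of the 3 was, against 0.729% of all genes. OS02G0164900, similar to ARF3, stood at 6.52 in the embryo and 2.63 in the endosperm, a difference of 3.88 as deposited and 2.56 centred. OS04G0671900, annotated as a regulator of phosphate homeostasis, stood at 5.01 against 1.77, a difference of 3.24 and 1.92 centred. OS06G0677800 stood at 6.37 against 4.08, a difference of 2.30 and 0.98 centred. In each of the 3 sites 6 of the 7 bases facing the seed could pair with it. The fourth annotated ARF, OS04G0664400, which had no miR167 site in those tables, was listed only for the embryo at 2.54.

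All 3 HD-ZIP III genes and most SPL genes were listed for the embryo alone. The 3 HD-ZIP III genes, with 1 and the same miR166 site, stood at 2.93 (OS03G0109400), 2.53 (OS03G0640800) and 1.67 (OS12G0612700) in the embryo and were missing from the endosperm tables. Of the 8 SPL genes 5 were listed for the embryo alone, 1 for both tissues and 2, OS01G0922600 and OS04G0551500, for neither. The highest was OS08G0509600, annotated for panicle branching, at 3.41, followed by OS02G0174100 at 2.68, OS02G0139400 at 2.37, OS09G0491532 at 2.12 and OS06G0703500 at 1.69. The gene in both tissues, OS06G0663500, stood at 2.55 against 1.21, a difference of 1.35 that is close to the median of all genes. All 7 bases facing the seed could pair in each miR156 and miR166 site shown.

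Those levels are low, and low genes were often missing from the endosperm whatever their kind. Of all genes that the embryo tables list, 22.1% were absent from those of the endosperm, and of those with an embryo level from 1 to 2 the share was 71.9%. From 2 to 3 it was 41.2%, from 3 to 4 it was 10.3%, and at 8 or more it was 0%. Of those that the endosperm tables list, 6.29% were absent from the embryo, 12.7% between levels 1 and 2. A missing gene is one that did not pass the authors' filter in a tissue, which does not show that it was not expressed.

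**Figure D4:**
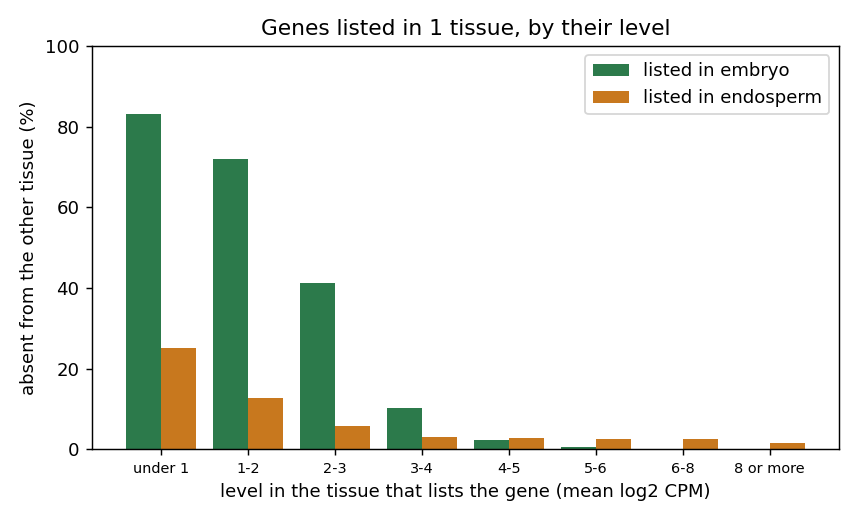
Share of genes (%, vertical axis) absent from the other tissue's tables, by the level (mean log2 CPM, horizontal axis) in the tissue that lists them. In the embryo the share falls from 71.9% between levels 1 and 2 to 10.3% between 3 and 4, while in the endosperm it is 12.7% between 1 and 2.

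Genes found in 1 tissue's tables alone had a median level of 1.87 for the embryo and 1.83 for the endosperm, and 17 and 61 of them reached a level of 5. The highest annotated gene of the embryo alone was OS03G0645000, similar to Expansin-B12, a wall-loosening protein, at 4.83. The lipoxygenase LOX2 (OS03G0738600) stood at 4.80, the knotted1-like gene given above at 4.46, an HVA22 gene (OS10G0177400) at 4.31 and OsGASR2 (OS04G0465300), a GASA protein, at 4.29. An AGO1-like gene, OS06G0729300, of the family that loads miRNAs, stood at 3.61; it was chosen after its value was seen. For the endosperm alone the highest after the grain filling bZIP were a cupredoxin domain gene, OS04G0561900, at 3.74, and a malectin-like domain gene, OS04G0586500, at 3.40. Of the 12 annotated laccases, copper oxidases that can polymerise phenolics, 2 were in the endosperm tables alone, at 1.53 (OS01G0634500) and 0.84 (OS01G0850700), 1 was in both and 9 were in neither.

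Heat shock chaperones ranged from some of the most read-rich annotated genes of both tissues to genes near the lowest levels. HSP70 and HSP90 proteins fold and refold clients with ATP, DnaJ proteins hand clients to HSP70, and small heat shock proteins hold unfolding proteins. The HSP70 gene OS11G0703900 drew the most reads of any annotated gene in the embryo, at a level of 13.42, and stood at 10.50 in the endosperm, a difference of 2.92 as deposited and 1.60 centred. OsHSP82 (OS09G0482100), an HSP90, stood at 10.99 against 8.30, a difference of 2.69. The DnaJ gene OsDjA4 (OS03G0648400) stood at 8.88 against 6.63, a difference of 2.25.

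The 14 HSP70 genes had a median of 1.57 as deposited and 0.25 centred, with 10 above the median of all genes. As deposited 5 of the 14 were past 4-fold in the embryo, beside 15.8% of all genes. Centred none were, and 1 of the 14 was past 4-fold in the endosperm, beside 5.69% of all genes. That gene, OS11G0187500, was low in both tissues, at 1.03 in the embryo and 2.14 in the endosperm, a difference of -1.10 as deposited. The 25 DnaJ genes in both tissues had a median of 1.44 and divided evenly about the median of all genes, 13 above and 12 below. The 13 small heat shock genes in both tissues had a median of 0.89 as deposited that became -0.43 centred, with 9 of the 13 below the median of all genes. The 3 HSP100 and Clp genes, which pull aggregates apart or feed a protease, had a median of 1.14. OsHsp17.3 (OS03G0266900) stood at 4.36 in the embryo and 5.74 in the endosperm, a difference of -1.37, and OsHSP18.0-CI (OS03G0267000) differed by -1.35. The most abundant of the class, Oshsp16.9A (OS01G0136100), stood at 10.39 and 9.25, a difference of 1.13 that turned to -0.19 centred.

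**Figure D5:**
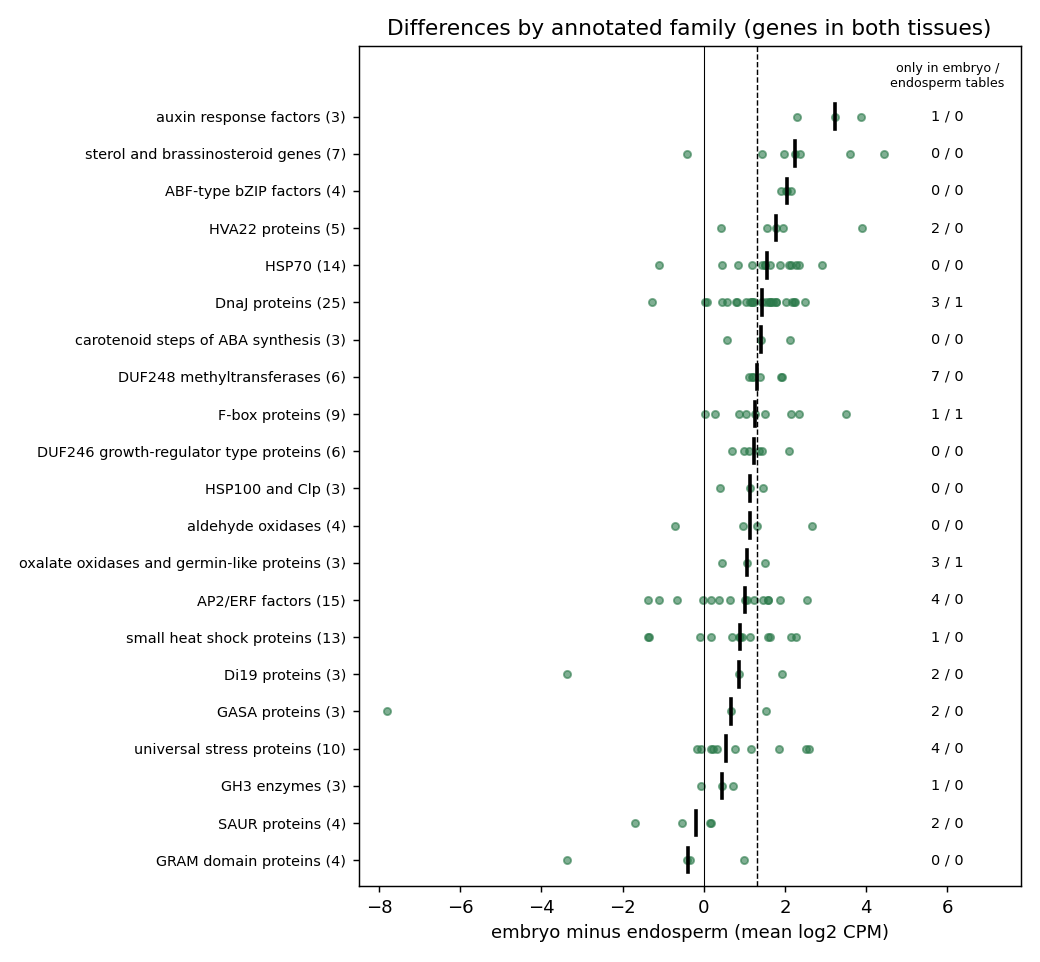
Embryo minus endosperm difference (mean log2 CPM) of each annotated gene in both tissues, by family, for families with at least 3 such genes, whose number stands in brackets. Black bars are family medians, the dashed line is the median of all genes (1.32), and the figures at the right count members listed in 1 tissue alone. ARFs lead with a median of 3.24 and GRAM domain genes come last with -0.39.

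ABA genes stood on both sides of the median of all genes. The 4 bZIP factors of the ABF type, which bind ABA response elements, were tightly grouped, from 1.89 to 2.14 with a median of 2.05, 0.72 centred. OsbZIP23 (OS02G0766700), the highest of them, stood at 5.96 in the embryo and 3.93 in the endosperm. Of the enzymes that cleave carotenoids towards ABA, OsNCED2 (OS12G0617400) stood at 4.15 against 2.03, a difference of 2.13, and OsNCED1 (OS03G0645900) at 1.08 against 0.51. Zeaxanthin epoxidase (OS04G0448900), an earlier step, had a difference of 1.41. Aldehyde oxidases make the last step to ABA, and their 4 genes ran from -0.72 for OsAO2 (OS10G0138100) to 2.67 for OsAAO (OS07G0164900), with 3 of the 4 below the median of all genes.

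HVA22 proteins, first known as ABA-induced membrane proteins of barley aleurone, had a median of 1.78 over 5 genes in both tissues and 2 more in the embryo tables alone. For 1 of the 5, OS02G0121600, the other description is of a zinc finger A20 protein, and without it the median was 1.86. The most embryo-rich, OS11G0498600, stood at 7.23 against 3.34, a difference of 3.90 as deposited and 2.57 centred, while the most abundant, OS08G0467500, stood at 9.71 against 8.14. The dehydrin Rab25 (OS01G0702500), a desiccation protein, stood at 11.39 in the embryo and 10.21 in the endosperm. That is a difference of 1.18, which became -0.14 centred.

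Ethylene genes spanned both sides. Of the 2 annotated receptors, OsETR4 (OS07G0259100) stood at 5.42 in the embryo and 2.22 in the endosperm, a difference of 3.20, whereas OsERS1 (OS03G0701700) stood at 4.04 against 5.01, a difference of -0.98. The ACC synthase OsACS6 (OS06G0130400), which makes the ethylene precursor, stood at 4.07 against 3.88. Both annotated ACC oxidases were listed for the embryo alone at under 1.5, and 71.9% of all genes between levels 1 and 2 were too. The 15 AP2/ERF factors in both tissues had a median of 1.02 as deposited that became -0.30 centred, and 4 more were in the embryo tables alone. Their ends were ethylene-responsive element-binding factor 3 (OS01G0797600), at 6.69 against 4.16, and OS02G0189500, at 4.82 against 6.20, which has an AP2 domain by its product name but is described elsewhere as a non-protein coding transcript. Without it the lowest difference was -1.10 and the median 1.04.

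Of the annotated GASA, SAUR and GH3 genes of gibberellin and auxin response that were listed in both tissues, most were below the median of all genes. GASA proteins, small cysteine-rich products of gibberellin-responsive genes, ranged from -7.81 for GASR6 to 1.53 for OS03G0607200, with 2 more listed for the embryo alone. The 4 SAUR genes in both tissues, early auxin-response genes, had a median of -0.19 as deposited and -1.51 centred, with all 4 below the median of all genes. OsSAUR21 (OS04G0617050) was the lowest, with a difference of -1.71. The 3 GH3 genes in both tissues, whose enzymes conjugate auxin or jasmonate to amino acids, had a median of 0.46 as deposited that became -0.86 centred. A further 2 SAUR genes and 1 GH3 gene were listed for the embryo alone. With missing genes placed at the lowest level of the other tissue, the GASA, SAUR and GH3 medians as deposited rose to 1.53, 0.16 and 0.59.

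Lipoxygenases and 12-oxophytodienoate (OPR) reductases were listed almost wholly for the embryo, 5 of 6 there alone. The exception, OsLOX1 (OS03G0700700), stood at 5.54 against 3.16, a difference of 2.37. LOX2, at 4.80, was the only one of the 5 above a level of 2, a range in which 71.9% of genes between 1 and 2 were missing from the endosperm anyway.

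The genes that the study followed in connection with PHS ranged from the GRAM domain gene, given above, to genes past 4-fold in the embryo as deposited, none of which stayed past 4-fold when centred. OsAAO3 (OS03G0790900) stood at 8.28 in the embryo and 7.32 in the endosperm, a difference of 0.96 as deposited that became -0.36 centred, and its neighbour AO (OS03G0790700) had a difference of 1.30. OsHsp17.9B (OS01G0135900), OsDjB2 (OS01G0875700) and the ABA receptor OsPYL/RCAR5 (OS05G0213500) had differences of 2.26, 2.17 and 2.24. OsDOG1L-3 (OS01G0306400), of the DOG1-like dormancy family, stood at 6.47 against 4.29, also 2.17. The dormancy regulator OsSdr4 (OS07G0585700) was nearly level, at 3.96 against 3.55, a difference of 0.41 as deposited that turned to -0.91 centred. OsERF103 (OS02G0764700) and OsFbox594 (OS11G0209600) had differences of 1.47 and 1.51, and the DnaJ genes OS07G0637150 and OsDjC76 (OS11G0578100) of 1.20 and 0.79. OsbHLH066 (OS03G0759700), OsbHLH084 (OS03G0728900) and OsACO3 (OS02G0771600) were listed for the embryo alone, at 1.71, 1.69 and 1.43. Of all genes with an embryo level from 1 to 2, 71.9% were likewise missing from the endosperm. The actin gene OsACT1 (OS03G0718100), used as a reference gene, stood at 5.93 and 5.43, a difference of 0.50 as deposited that became -0.83 centred.

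Genes abundant in both tissues included a catalase and a glyoxalase. Catalase B (OS06G0727200), which breaks down hydrogen peroxide, stood at 9.74 in the embryo and 8.94 in the endosperm. A glyoxalase I annotated for abiotic stress, OS08G0191700, which clears methylglyoxal, was equal within 0.03, at 8.56 and 8.58. An arabinogalactan protein gene, OS09G0512900, stood at 8.76 in the endosperm and 0.24 higher in the embryo, and Edf (OS08G0366100), similar to a transcriptional coactivator, at 9.54 and 9.39. Centred, all 4 were lower in the embryo, which the glyoxalase already was as deposited.

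Some genes of both sides followed each other in the order of genes along the chromosomes. Only genes listed in both tissues were ordered, so a neighbour is the next such gene, and other genes may lie between. Ordered by their IDs, which run along each chromosome, 23.6% of the 258 placed genes that were at least 4-fold higher in the endosperm had a neighbour of the same kind, against 3.35% of the other 12844. For genes at least 4-fold higher in the embryo the shares were 33.6% and 28.2%. Centred, they were 23.5% and 10.2% on the endosperm side and 8.33% and 1.38% on the embryo side, so which side has the larger ratio turns over with the scaling. There were 5 runs of 3 or more such endosperm genes, 31 genes in all. The longest, on chromosome 5, had 13 genes with endosperm levels from 10.04 to 14.62 and differences from -7.92 to -6.99, and it held 7.44% of the endosperm total and 0.0341% of the embryo total. A run of 7 on chromosome 7, which included the trypsin and alpha-amylase inhibitor gene OS07G0216600, had levels from 8.64 to 11.58. How reads were divided between near-identical neighbours is not given in the sources used here. By chromosome, the share of genes at least 4-fold higher in the endosperm ran from 1.15% on chromosome 4 to 3.95% on chromosome 7, beside 1.97% overall.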

How the data were processed

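mRNA libraries (SENSE kit) were sequenced by the authors, trimmed with Trimmomatic, mapped to IRGSP 1.0 with HISAT2, counted with featureCounts and fitted with edgeR, each tissue apart. The deposited tables hold, per gene, the authors' mean log2 CPM (edgeR's average, which lifts low values by a prior count), and a log2 fold change with p-value and FDR columns for Gopum against Jowoon at 30, 45 or 60 DAH. Those last columns were not used. The methods describe more replicates than the 2 libraries labelled per group.

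The log2 levels were subtracted (Python 3.11, pandas) and counted past 4-fold, a log2 difference of 2, as deposited and centred on the median. The script was tested on simulated data. Named genes were up to 12 annotated genes with the largest difference in each direction at a level of at least 8. Fewer than 12 qualified on the endosperm side. Also named were the 12 highest per tissue, the extremes of each of 30 families, the 5 highest listed in 1 tissue alone, and the study's candidates. Genes with large differences below level 8 were added after their values were seen. Members and lists were chosen with earlier results of these data known, and families were set from the study's annotation because 10 of 23 planned lists had no annotated member. Annotation and target sites came from the supplementary tables.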

Additional observations from a re-analysis of the deposited data

How the results depend on the processing

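No paired analysis was possible because the levels are 1 mean per tissue with no value per library, and no replicate could be left out for the same reason. The counts of tissue-rich genes depended on the scaling. The 2081 embryo-rich genes became 96 centred on the median, 151 with the 50 most abundant genes of either tissue left out of the total, and 98 with a 30% trimmed mean taken off. The 259 endosperm-rich genes became 749, 653 and 746 under the same 3 scalings. At 2-fold the counts were 8665 and 574, at 8-fold 205 and 147, and with a level of at least 3 in both tissues 999 and 100. With that level in either tissue they were 2065 and 257. The median difference of 1.32 was 0 centred, 0.18 with the top 50 left out, 0.0069 with the trimmed mean off, 1.44 with a level of at least 3 in either tissue and 1.29 in both.

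Of 29 families with a gene in both tissues 10 had a median above that of all genes, a count that the 3 scalings cannot change, since each takes 1 constant off every gene. It was 9 of the 25 families that kept a gene at a level of at least 3 in either tissue and 12 with missing genes placed at the lowest level of the other tissue. For the same reason, by construction, centring turned the median of 17 families, and 33 of 106 named genes, from positive to negative. Chosen after seeing the data, a level of at least 3 left 388 genes listed for the embryo alone and 211 for the endosperm alone, and shares of the nominal CPM total rather than of the summed CPM put the 10 leading genes at 11.4% of the embryo and 45.0% of the endosperm. Ranking per kilobase and a search of promoters were not run, since no protein or promoter sequences were used here.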

Other observations

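Several further families stood below the median of all genes or were spread about it. The 10 universal stress proteins in both tissues, which bind nucleotides under stress, had a median of 0.54 as deposited that became -0.78 centred, with 7 of 10 below the median of all genes and 4 more listed for the embryo alone. Within them OS10G0437500 stood at 8.20 in the embryo and 5.61 in the endosperm, a difference of 2.59, while OsUsp1 (OS07G0673400) stood at 2.54 and 2.70. Of the 13 annotated DUF248 methyltransferases, a family that includes wall pectin enzymes in Arabidopsis, 7 were listed for the embryo alone. Of these 7, 6 had embryo levels under 3, where genes are often missing from the endosperm. The share of all genes missing there was 83.0% under level 1, 71.9% between 1 and 2 and 41.2% between 2 and 3. The 6 in both tissues ran narrowly from 1.12 to 1.94.

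Oxalate oxidases and germin-like proteins were divided, with 3 in both tissues, 3 in the embryo alone and 1 in the endosperm alone. OsGLP8-2 (OS08G0189100), the most abundant of them, stood at 7.59 and 7.15, a difference of 0.44 that turned to -0.88 centred. The 3 GRAS genes annotated for shoot meristem maintenance were low throughout, at 1.86 against 1.32 for OS02G0662700, 2.35 against 1.16 for OS02G0663100, and 1.81 in the embryo alone for OS04G0555000. Among 9 F-box genes in both tissues OS07G0561300 was the most embryo-rich, at 5.93 against 2.43, a difference of 3.50 and 2.18 centred.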
